A study of Mus musculus with 6 samples.

Results

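Pf4, Ppbp, Itga2b, Tubb1, Gp9 and Vwf, 6 genes known from platelets and their precursor the megakaryocyte, were followed in RNA sequencing libraries of mouse bone marrow-derived macrophages. All 6 were found by symbol among the 10551 genes of the count table, and all 6 passed the expression filter. They had been picked from earlier results of the same comparison, Dhps knockout against control, so their differences between genotypes are given as a description and carry no support of their own. The tested libraries were 3 from macrophages of the genotype Dhps_delta_Myel, described as a macrophage-specific knockout, and the others were 3 from control macrophages. Both genotypes were on the C57BL/6J strain. Dhps encodes deoxyhypusine synthase, the enzyme that begins the making of hypusine, an amino acid found in eIF5A. The Cre driver, the genotype of the controls beyond that word, the age of the mice, the culture conditions and any stimulus are not given in the sources used here. Whether libraries of the same genotype stem from different mice or dishes is not stated, so errors and p-values below cover the spread among these samples alone, and that spread may be technical.

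Megakaryocytes are marrow cells that shed platelets, and platelets keep a small store of RNA from them. Platelet alpha granules hold the chemokines Pf4 and Ppbp and the adhesive protein von Willebrand factor, encoded by Vwf. On the platelet surface, Itga2b pairs with the integrin subunit Itgb3 to bind fibrinogen, and Gp9 is part of the glycoprotein Ib-IX-V complex that binds von Willebrand factor. Tubb1 encodes the beta tubulin of the microtubule ring that gives platelets their disc shape. Pf4 is also transcribed in macrophages, and Vwf is also an endothelial gene. Ppbp, Itga2b, Tubb1, Gp9 and Vwf are called lineage-restricted here to set them apart from Pf4, although Itga2b is known in early blood progenitors too.

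The libraries held between 11648710 and 16224818 counts over the table. Pearson's r of log2 CPM (CPM are counts relative to the library total, scaled by TMM factors) was 0.987 to 0.991 for pairs of the same genotype and 0.986 to 0.990 for pairs of different genotype. Dhps itself was at 15.0 ± 2.86 CPM in knockout and 22.8 ± 1.67 CPM in control libraries (SD, n = 3 each), without overlap of the groups and with an adjusted p of 0.214 in edgeR's quasi-likelihood test. The deleted part of Dhps is not given, so counts over the whole gene check the label only in part. Of 10 listed macrophage genes all 10 were measured, among them the receptor gene Csf1r at 1003 ± 92.8 CPM in knockout and 1093 ± 81.5 CPM in control libraries. Of these 10 genes 7 had a log2 fold change below 0 and 3 above it. All knockout libraries were below all control libraries for 3 genes and above them for 0, against 5.45% and 5.73% of all genes. Among the 3 were Fcgr1 (log2 fold change -0.33, adjusted p = 0.503 in edgeR's test) and Adgre1 (-0.18, adjusted p = 0.802). In that test 1 of the 10 fell and 9 did not pass, where 0.00948% of all genes passed and were lower. That gene was Lyz2, which encodes lysozyme M, at 8765 ± 701 CPM in knockout and 18039 ± 1542 CPM in control libraries (log2 fold change -1.04, adjusted p = 7.2e-05 in edgeR's test). Of 22 listed platelet receptor genes 15 were measured, and of 14 listed megakaryocyte transcription factors 10 were. Gata1, Gp6 and Gp1bb were among the listed genes that were absent from the 10551 genes analysed.

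RefSeq promoter windows (GRCm38.p6, the assembly also called mm10) were found for 5 of the 6 genes, all but Vwf. Megakaryocyte genes are known to be controlled by GATA, ETS, RUNX and NF-E2 factors, and macrophage genes by the ETS factor PU.1, so these motifs were searched in the 250 bases before each annotated start. The letters searched on both strands were AGGAAG for the ETS family, TGTGGT for the RUNX family and TGCTGAG for the NF-E2 motif; the GATA letters were AGATAA as well as TGATAA, and also AGATAG together with TGATAG. The windows of Pf4 and Ppbp are shown because the genes are neighbours that differed in direction, and those of Itga2b and Gp9 because they are the receptor genes. Capitals mark a match on either strand. They lie at chr5:90772185-90772434 (plus strand) for Pf4, chr5:90768268-90768517 (plus) for Ppbp, chr11:102469884-102470133 (minus) for Itga2b and chr6:87777820-87778069 (plus) for Gp9.
Pf4: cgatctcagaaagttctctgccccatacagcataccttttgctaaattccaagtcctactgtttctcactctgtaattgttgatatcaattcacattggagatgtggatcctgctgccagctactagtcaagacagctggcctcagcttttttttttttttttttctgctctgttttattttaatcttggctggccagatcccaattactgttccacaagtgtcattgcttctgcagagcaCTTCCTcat
Ppbp: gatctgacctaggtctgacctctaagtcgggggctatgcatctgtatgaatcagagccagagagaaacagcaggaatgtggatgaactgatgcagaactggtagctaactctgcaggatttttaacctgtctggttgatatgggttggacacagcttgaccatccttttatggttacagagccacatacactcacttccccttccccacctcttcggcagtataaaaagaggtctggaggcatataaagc
Itga2b: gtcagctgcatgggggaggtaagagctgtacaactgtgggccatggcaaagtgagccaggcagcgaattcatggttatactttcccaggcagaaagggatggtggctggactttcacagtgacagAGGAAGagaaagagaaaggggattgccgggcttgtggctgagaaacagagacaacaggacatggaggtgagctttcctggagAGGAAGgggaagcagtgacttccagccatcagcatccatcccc
Gp9: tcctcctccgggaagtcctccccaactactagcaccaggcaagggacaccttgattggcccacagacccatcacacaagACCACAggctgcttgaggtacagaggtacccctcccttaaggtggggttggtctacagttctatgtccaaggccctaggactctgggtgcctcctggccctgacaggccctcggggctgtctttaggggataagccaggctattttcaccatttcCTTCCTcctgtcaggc
The ETS letters stood once in the Pf4 window, on the minus strand 9 bases before the annotated start, and at 125 and 43 bases in the Itga2b window. They also stood at 16 bases (minus strand) in the Gp9 window and at 106 bases in the Tubb1 window. The Ppbp window held none of the 4 motifs. The Gp9 window also held the RUNX letters, on the minus strand at 171 bases. No GATA or NF-E2 letters were in the 5 windows. Among all 32851 RefSeq windows of the same length, 29.5% held the ETS letters, 26.5% GATA, 14.0% RUNX and 6.21% NF-E2.

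Levels of different genes were compared per length, as RPKM (normalized CPM per kilobase of the summed exon length in the count table). Pf4 stood far above the other genes, at 2117 ± 119 RPKM in knockout and 2580 ± 268 RPKM in control libraries (SD, n = 3 each, as for all values with an SD below). By this measure it ranked 20 in knockout and 16 in control libraries among 10551 genes. In knockout libraries the order below it was Ppbp (11.0 ± 1.99 RPKM), Vwf (8.46 ± 0.653), Itga2b (4.80 ± 0.839), Gp9 (1.92 ± 0.496) and Tubb1 (0.672 ± 0.162). In control libraries it was Vwf (9.22 ± 0.419 RPKM), Ppbp (6.45 ± 0.0380), Itga2b (3.06 ± 0.758), Gp9 (0.888 ± 0.302) and Tubb1 (0.229 ± 0.172). The libraries of neighbours in either order did not overlap, and Ppbp and Vwf traded places between the groups.

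**Figure D1:**
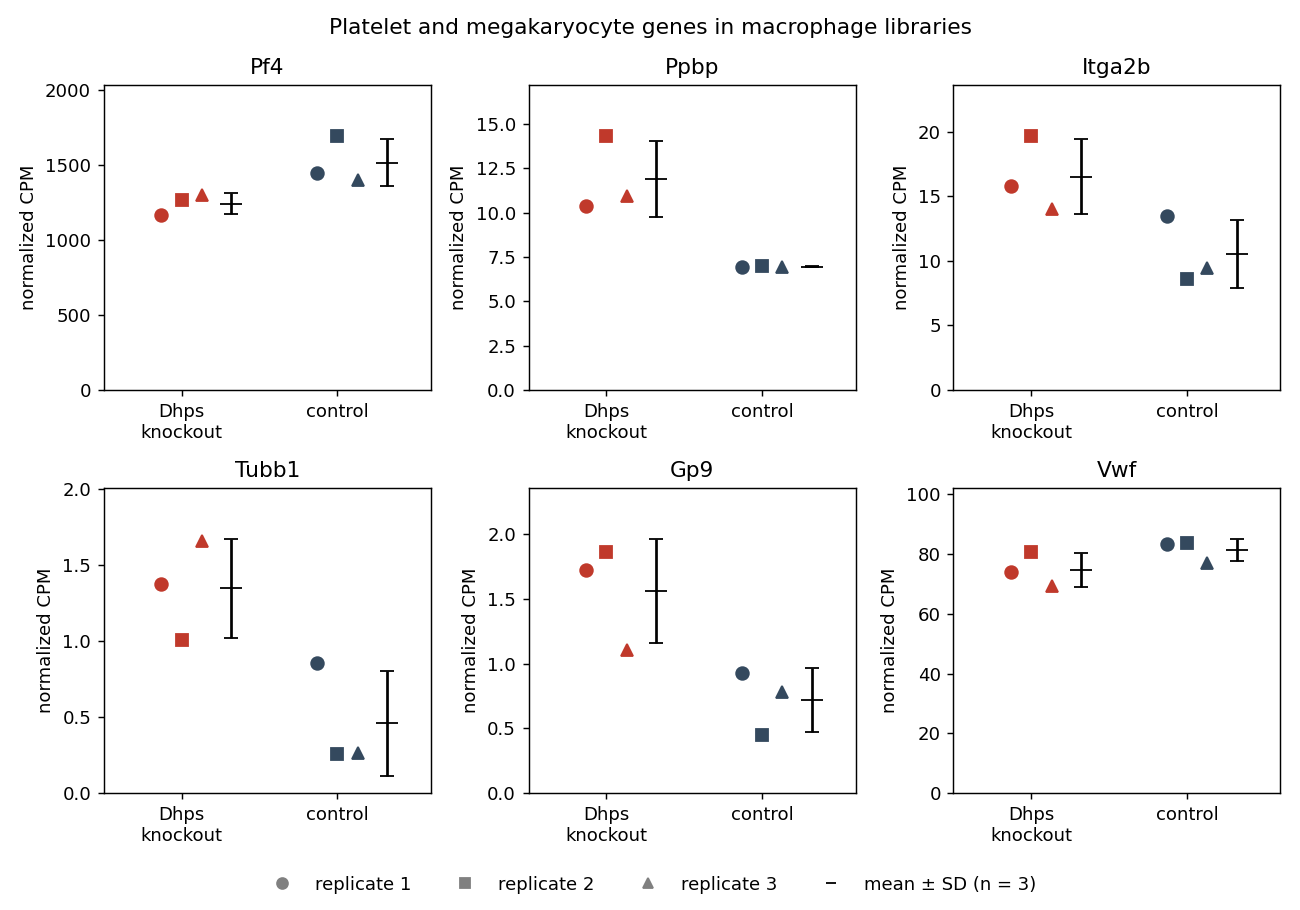
Normalized CPM of the 6 genes in each library, with Dhps knockout at the left and control at the right of each panel. Symbols mark the replicate number and bars the mean ± SD of 3 libraries, and each vertical axis starts at 0. Pf4 lies lower in all knockout libraries, Ppbp, Itga2b, Tubb1 and Gp9 lie higher, and the Vwf groups overlap.

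Pf4 encodes platelet factor 4 (Cxcl4), a CXC chemokine that binds heparin and other glycosaminoglycans. It is a gene of 3 exons on chromosome 5, from 90772435 to 90773383 on the plus strand (mm10). It lay at 1166, 1269.6 and 1299 normalized CPM in the knockout libraries, against 1451, 1697 and 1403 CPM in the control libraries. Every knockout library was below every control library, and control replicate 2 stood highest. The means were 1245 ± 70.0 and 1517 ± 157 CPM, and the log2 fold change, knockout over control, was -0.29 with an SE of 0.093 (95% interval -0.48 to -0.088). With at least 16134 reads per library, counting error was a minor part of this spread. The log2 fold change was -0.19 without control replicate 2 and -0.34 without control replicate 3, the ends of its range with 1 library left out. In bulk RNA, fewer cells that express a gene and less RNA per cell cannot be told apart.

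Ppbp encodes pro-platelet basic protein, the precursor of the neutrophil-attracting chemokine NAP-2 (Cxcl7). It lies on chromosome 5 from 90768518 to 90770060, on the same strand as Pf4 and 2374 bases before it. Its level was 10.4, 14.3 and 10.9 CPM in knockout libraries, against 6.93, 7.01 and 6.96 CPM in control libraries. All knockout libraries were higher, with replicate 2 highest, and the controls nearly coincided. The log2 difference of 0.77 had an SE of 0.17 and a 95% interval of 0.41 to 1.12, with the smallest p of the 6 genes. The SD of 0.041 CPM among the controls was far below the 0.717 CPM that counting error alone gives at this depth, so the closeness of the controls is not a measure of their true spread. Reads numbered 151, 185 and 178 in knockout and 97, 109 and 80 in control libraries. Leaving out knockout replicate 2 gave a log2 fold change of 0.61, and leaving out knockout replicate 1 gave 0.86.

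Itga2b encodes the integrin subunit alpha IIb, known as CD41, and has 30 exons on chromosome 11, from 102453297 to 102469883 on the minus strand. It lay at 15.8, 19.7 and 14.0 CPM in knockout libraries, against 13.5, 8.61 and 9.48 CPM in control libraries. The groups did not overlap, but knockout replicate 3 and control replicate 1 were only narrowly apart. The log2 difference was 0.64 (SE 0.18, 95% interval 0.27 to 1.02). Its partner Itgb3, the beta 3 integrin subunit that macrophages also use with alpha V, had 42.2, 34.8 and 34.0 CPM in knockout libraries, against 31.7, 17.6 and 24.3 CPM in control libraries. For Itgb3 the log2 difference was 0.60 (SE 0.16, adjusted p = 0.362 in edgeR's test). In the same test its adjusted p was 0.021 without control replicate 1, and it was not called with any other library left out. Control replicate 1 was the highest control for both subunits.

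Gp9 encodes glycoprotein IX and lies on chromosome 6 from 87778136 to 87779762. Few reads fell on it, with 1.72, 1.86 and 1.10 CPM in knockout libraries, against 0.928, 0.450 and 0.783 CPM in control libraries. These values stood for 25, 24 and 18 reads in knockout and 13, 7 and 9 reads in control libraries, with exact Poisson 95% intervals of 10.7 to 28.4 reads for knockout replicate 3 and 6.92 to 22.2 reads for control replicate 1. The normalized levels did not overlap between the groups, while these counting intervals did. Its log2 fold change was 1.11 (SE 0.41, 95% interval 0.24 to 1.98). The other measured subunits of the same receptor complex were Gp5, at 2.17 ± 0.337 CPM in knockout and 1.16 ± 0.791 CPM in control libraries, and Gp1ba, at 1.48 ± 0.544 and 1.05 ± 0.238 CPM. In edgeR's test the log2 differences were 0.90 for Gp5 (adjusted p = 0.749) and 0.53 for Gp1ba (adjusted p = 0.894), and the groups overlapped for both.

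Tubb1 lies on chromosome 2 from 174450595 to 174458380 and was the lowest of the 6 genes. It had 20, 13 and 27 reads in knockout libraries (1.38, 1.01 and 1.66 CPM), against 12, 4 and 3 reads in control libraries (0.857, 0.257 and 0.261 CPM). Control replicate 1 stood close to knockout replicate 2, and the other controls were well below both. The log2 fold change was 1.54 (SE 0.49, 95% interval 0.51 to 2.57). Without control replicate 1 it was 2.35, and without control replicate 2 it was 1.22. Tubb1 and Gp9 are among 31 genes above 1 CPM in all 3 knockout and 0 control libraries. Every gene of the table was above 1 CPM in at least 3 libraries, Tubb1 (at 1.003 CPM) and Gp9 (at 1.11 CPM) being just inside by the lowest knockout library without scaling, so both entered the table only through the knockout libraries.

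Vwf encodes von Willebrand factor, which tethers platelets to damaged vessel walls and carries coagulation factor VIII. It has 52 exons on chromosome 6, from 125552948 to 125686679. Its level was 74.1, 80.8 and 69.3 CPM in knockout libraries, against 83.5, 83.6 and 77.1 CPM in control libraries. The groups overlapped, with knockout replicate 2 inside the range of the controls. Its log2 fold change was -0.12 (SE 0.095, 95% interval -0.32 to 0.075), an interval that leaves out an increase of the size fitted for Itga2b or Ppbp. At 887 to 1301 reads per library, Vwf was the second most counted of the 6 genes. None of its exons, nor those of the other 5 genes, overlapped an exon of another gene in the GENCODE annotation of the same assembly. Of 12 listed endothelial genes 5 were measured. Besides Vwf these were Kdr (2.52 ± 0.463 CPM in knockout and 2.63 ± 0.613 CPM in control libraries), Pecam1 (6.08 ± 0.406 and 4.98 ± 0.476 CPM), Esam (1.62 ± 0.332 and 1.08 ± 0.378 CPM) and Eng (51.5 ± 6.13 and 49.8 ± 3.39 CPM). Cdh5, Tek, Tie1 and Emcn, which define endothelial cells, were not among the genes analysed.

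In edgeR's quasi-likelihood test 0 of the 6 genes passed an adjusted p of 0.05 over all 10551 genes, where 0.104% of all genes passed, 0.0948% higher and 0.00948% lower in knockout libraries. The adjusted p ranged from 0.142 for Ppbp to 0.899 for Vwf. At an unadjusted p under 0.05, 4 of the 6 were higher and 1 was lower, against 3.84% and 2.64% of all genes (6.48% in either direction). DESeq2 and limma-voom also called 0 of the 6, with Ppbp at an adjusted p of 0.053 in DESeq2. In 1 other alternative, given under the dependence on processing, Ppbp was called. The groups did not overlap for 5 of the 6 genes, 4 higher and 1 lower, against 11.2% of all genes, 5.73% higher and 5.45% lower. Because the same comparison chose the genes, and because Tubb1 and Gp9 had to be higher to be measured, nothing is read from these counts.

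Within a library, ratios of read counts do not depend on the scaling between libraries. There were 112, 88.6 and 119 Pf4 reads per Ppbp read in knockout libraries, against 209.5, 242 and 202 in control libraries, means of 107 ± 16.0 and 218 ± 21.4. Per read of Ppbp, Itga2b, Tubb1 and Gp9 together, Pf4 had 40.4 ± 6.24 reads in knockout and 83.2 ± 19.4 reads in control libraries. With Vwf added to the sum, the ratio was 11.8 ± 1.38 in knockout and 15.2 ± 1.65 in control libraries. In none of these ratios did the groups overlap, and that with Vwf had the smallest gap, between 13.4 in knockout replicate 3 and 13.7 in control replicate 1. Pf4 was lower, and Ppbp, Itga2b, Tubb1 and Gp9 each higher, in all knockout libraries. The ratios without Vwf therefore could not overlap, and nothing is read from their separation. Vwf in turn had 4.58 ± 0.426 reads per Itga2b read in knockout and 8.01 ± 1.77 in control libraries. The median log2 fold change of the 5 lineage-restricted genes, which was the value of Ppbp (0.77), exceeded that of Pf4 by 1.05. The choice of genes and the entry of Tubb1 and Gp9 through the knockout libraries bear on this difference, so it is a description only. Vwf was closer to Pf4 than to the other 4 genes in its fold change.

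**Figure D2:**
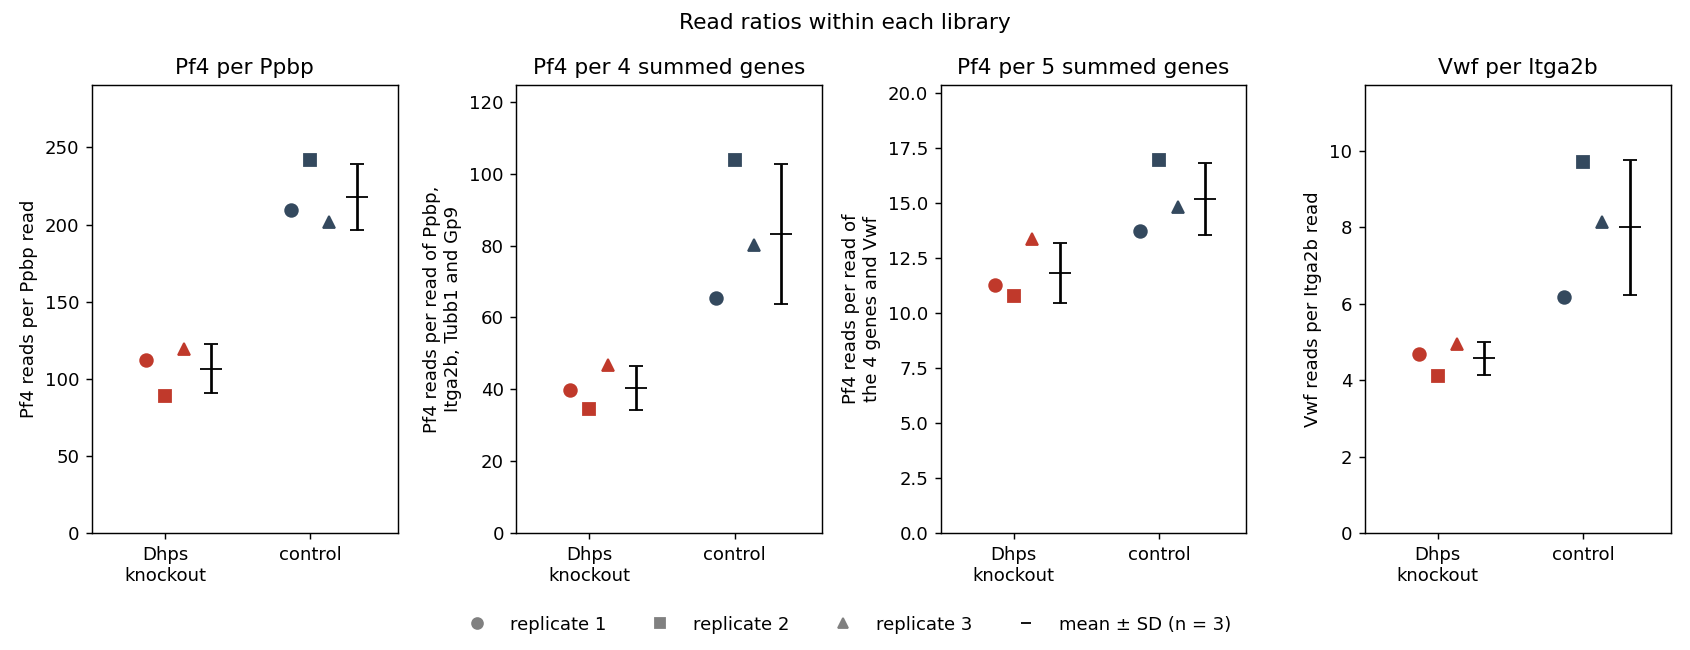
Reads of Pf4 per read of Ppbp, per read of Ppbp, Itga2b, Tubb1 and Gp9 summed, and per read of these 4 genes and Vwf summed, and reads of Vwf per read of Itga2b, in each library. Knockout libraries stand at the left and control libraries at the right of each panel, with the mean ± SD of 3 libraries. Pf4 per Ppbp lies between 88.6 and 119 in knockout and between 202 and 242 in control libraries.

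Pf4 and Ppbp belong to a cluster of CXC chemokine genes on chromosome 5, of which 6 of 7 listed genes were measured. None of the 6 passed in edgeR's test. Cxcl5, which lies before Ppbp, was at 1.65 ± 0.621 CPM in knockout and 0.944 ± 0.420 CPM in control libraries (log2 difference 0.78, adjusted p = 0.834). Cxcl3, the next gene after Pf4, was at 58.4 ± 16.0 and 64.2 ± 4.95 CPM (-0.13, adjusted p = 0.938). Cxcl1, a neutrophil attractant, was at 34.5 ± 1.18 CPM in knockout and 43.9 ± 6.90 CPM in control libraries (-0.35, adjusted p = 0.542), with no overlap of the groups. Cxcl2 was at 302 ± 11.4 and 301 ± 22.0 CPM (0.00). The genes of the cluster thus had log2 fold changes on both sides of 0.

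A wider view came from 82 genes in 5 lists of platelet and megakaryocyte function, which include the 6 genes. 67 were measured and 0 passed in edgeR's test over all genes. Without the 6 genes, 61 were measured, and 12 were higher and 0 lower in knockout libraries at an unadjusted p under 0.05, against 3.84% and 2.64% of all genes. Of the 61, 40 had a log2 fold change above 0, against 5143 of all 10551 genes. Their median log2 fold change was 0.099, against -0.0044 for all genes. The 29 of these 61 genes with a mean under 20 CPM had a median of 0.34, with 9 at an unadjusted p under 0.05 and higher, against a median of 0.0072 and 4.54% higher at that p among all genes under 20 CPM. The 32 genes at or above 20 CPM had a median of 0.0082, with 3 higher at that p, against 3.12% of all genes at or above 20 CPM. The limit of 20 CPM was chosen after the values were seen, and the lists were chosen with earlier results of these data known. Among the low genes, Gp1ba, Gp5, Treml1, Esam, P2rx1 and Rab27b were above 1 CPM in 3 knockout libraries and in only 1 or 2 control libraries. They needed the knockout libraries to enter the table, and all genes under 20 CPM are not matched to them in this. So nothing is read from these counts.

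By role, the surface receptors had the highest median. Of 22 receptor genes 15 were measured, 14 had a log2 fold change above 0 and none passed, with a median of 0.54. Without Itga2b and Gp9, 12 of 13 lay above 0 with a median of 0.53, against 5143 of 10551 and -0.0044 for all genes. Of these 13, Gp1ba, Gp5, Treml1 and Esam were above 1 CPM in 3 knockout libraries and 1 control library, and P2rx1 in 3 and 2. By the control libraries alone these genes would not have entered the table, so the median and the count above 0 are a description only. Beside the subunits already given, P2rx1, an ATP-gated channel of platelets, was at 1.94 ± 0.0802 CPM in knockout and 1.09 ± 0.203 CPM in control libraries (0.84, adjusted p = 0.673). The receptors with the highest RPKM were the tetraspanin Cd9, which macrophages also carry (0.21, adjusted p = 0.836), Itgb3, and the prostacyclin receptor Ptgir (0.099, adjusted p = 0.961). The thrombin receptor gene F2r was the exception below 0, at -0.40 (adjusted p = 0.902).

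Of 16 granule and secreted genes all were measured, 10 lay above 0 and the median was 0.097. Mmrn1, which encodes the factor V carrier multimerin, was at 3.54 ± 0.685 CPM in knockout and 1.84 ± 0.550 CPM in control libraries (0.95, adjusted p = 0.495). Its cargo F5, coagulation factor V, was at 16.5 ± 1.76 and 11.4 ± 2.62 CPM (0.53, adjusted p = 0.439), and Clu, the chaperone clusterin, at 3.25 ± 0.500 and 1.81 ± 0.0628 CPM (0.85, adjusted p = 0.509). These genes were named for their small p, and for each all knockout libraries were above all control libraries. Of the 13 granule genes outside the 6 genes, 3 had this separation, against 5.73% of all genes. The abundant granule proteoglycan gene Srgn, also a macrophage gene, was at 820 ± 20.7 CPM in knockout and 823 ± 32.1 CPM in control libraries (-0.0058, adjusted p = 0.998).

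Of 15 cytoskeletal genes 12 were measured, with a median of 0.013 and 7 above 0. Apart from Tubb1, the smallest p was that of the alpha tubulin gene Tuba4a, at 10.1 ± 1.21 CPM in knockout and 6.35 ± 1.04 CPM in control libraries (0.67, adjusted p = 0.325). The genes of broadly used actin-binding proteins, Flna (-0.099, adjusted p = 0.932), Actn1 (-0.066, adjusted p = 0.964) and Tpm4 (-0.11, adjusted p = 0.900), lay near 0. Parvb, an integrin-linked adaptor, differed by 0.24 on the log2 scale (adjusted p = 0.793).

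Among 14 measured of 15 signalling genes, 8 lay above 0 and the median was 0.048. Alox12, the platelet 12-lipoxygenase, was at 3.51, 3.10 and 3.07 CPM in knockout libraries, against 1.21, 1.41 and 1.91 CPM in control libraries (1.10, adjusted p = 0.313). Rab27b, a GTPase of dense granule secretion, was at 2.49 ± 0.442 and 1.17 ± 0.275 CPM (1.06, adjusted p = 0.461). The G protein subunit Gng11 (0.26, adjusted p = 0.749) and the adaptor Lat (-0.38, adjusted p = 0.838) came next by p. The genes at the highest RPKM, Plek (0.071, adjusted p = 0.944), Rap1b (0.14, adjusted p = 0.870) and Syk (-0.030, adjusted p = 0.987), are widely used in myeloid cells.

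Of 14 megakaryocyte transcription factors 10 were measured, 5 above and 5 below 0, with a median of -0.040. Gata1, Gata2, Gfi1b and Lyl1 were not among the genes analysed. Meis1 had the smallest p, at 9.54 ± 1.05 CPM in knockout and 7.40 ± 0.497 CPM in control libraries (0.36, adjusted p = 0.749). Tal1 (-0.24, adjusted p = 0.861), Mafg (-0.22, adjusted p = 0.840) and Zfpm1, the GATA1 cofactor (0.23, adjusted p = 0.908), followed, and Etv6 (0.023) and Mafk (-0.12) were among the most abundant.

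**Figure D3:**
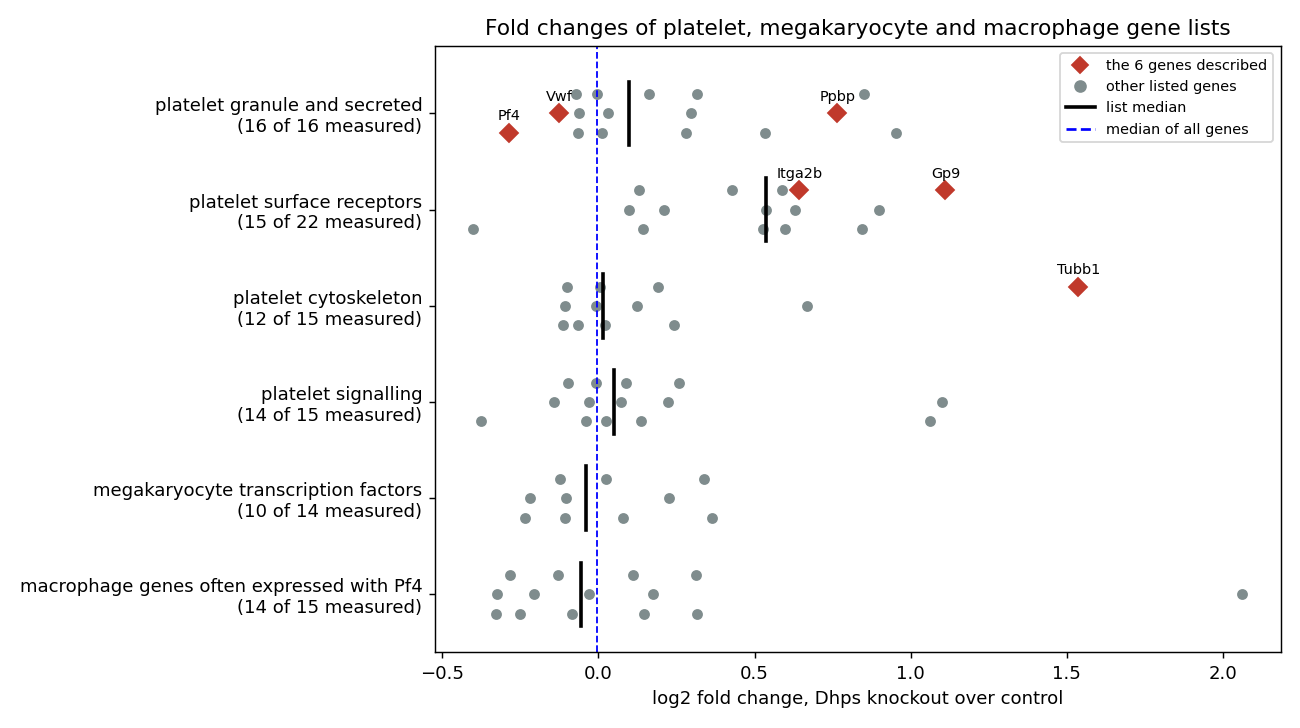
Log2 fold change, Dhps knockout over control, of each measured gene in 5 lists of platelet and megakaryocyte genes and in a list of macrophage genes often expressed with Pf4. Each point is 1 gene, diamonds are the 6 genes described, black bars are list medians and the dashed line is the median of all genes at -0.0044. The median of the surface receptors is 0.54 (0.53 without Itga2b and Gp9), and the other medians lie between -0.057 and 0.097. Several surface receptor genes, Gp9 among them, needed the knockout libraries to enter the table, so that median is a description only.

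Of 15 macrophage genes that are often expressed together with Pf4 in tissue macrophages, 14 were measured and none passed. The median log2 fold change was -0.057, with 6 above and 8 below 0. The complement C1q chains C1qa (-0.28, adjusted p = 0.406), C1qb (-0.25, adjusted p = 0.588) and C1qc (-0.33, adjusted p = 0.343) had fold changes close to that of Pf4, and all knockout libraries lay below all control libraries for the 3 chains. Of the 14 genes, 3 were lower in all knockout libraries and 1 was higher, against 5.45% and 5.73% of all genes. C1qc was at 530 ± 46.8 CPM in knockout and 665 ± 28.7 CPM in control libraries. The scavenger receptor gene Stab1 differed by -0.33 on the log2 scale (adjusted p = 0.501). Apoe, among the most abundant of the list, was at 1554 ± 143 CPM in knockout and 1377 ± 522 CPM in control libraries (0.17, adjusted p = 0.929). Cd163, the haemoglobin scavenger receptor, stood apart at 3.66 ± 1.73 and 0.824 ± 0.563 CPM (2.06, adjusted p = 0.142).

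Of the markers of other cell types, the neutrophil and stromal sums did not overlap between the groups, while the monocyte, endothelial, progenitor and erythroid sums did. The mast cell sums were apart only narrowly, at 18.8 CPM in knockout replicate 1 and 18.5 CPM in control replicate 1. The summed level of Ppbp, Itga2b, Tubb1 and Gp9, none of which passed, was 29.3, 36.9 and 27.7 CPM in knockout libraries, against 22.2, 16.3 and 17.5 CPM in control libraries. With Vwf added, the sums overlapped, at 97.1 to 118 CPM in knockout and 94.6 to 106 CPM in control libraries. For 11 measured of 15 neutrophil and precursor markers the sum was 711 to 889 CPM in knockout and 407 to 513 CPM in control libraries. Of these 11 genes 5 rose and 6 did not pass, where 0.0948% of all genes passed and were higher, led by Ngp (1.24, adjusted p = 1.5e-04), S100a8 (0.95, adjusted p = 4.3e-04) and Lcn2 (0.87, adjusted p = 0.0026). For 6 measured of 12 stromal markers the sum was 19.9 to 25.9 CPM in knockout and 11.6 to 14.5 CPM in control libraries, and Col1a2, Sparc and Fstl1 rose (adjusted p = 0.046 each). Col1a2 and Sparc were above 1 CPM in 0 control libraries, so they entered the table only through the knockout libraries and had to be higher there. Sparc is a platelet granule gene as well as a matrix gene. Mast cell and basophil markers, 5 measured of 12, summed to 18.8 to 27.2 CPM and 14.3 to 18.5 CPM, with Mcpt8 (2.00, adjusted p = 0.110), Prss34 (1.70, adjusted p = 0.132) and Hdc (0.31, adjusted p = 0.826) first by p. Mcpt8 and Prss34 also entered the table only through the knockout libraries, so the gap between the mast cell sums is not read as a result. The other mast cell markers, Hdc, Cpa3 (-0.11) and Kit (0.11), overlapped between the groups. Monocyte markers, 9 measured of 10, summed to 306 to 458 CPM in knockout and 298 to 402 CPM in control libraries, with overlap, and Plac8 (0.86, adjusted p = 0.216), Hp (0.64, adjusted p = 0.290) and Spn (0.79, adjusted p = 0.509) came first. Endothelial markers, Vwf among them, summed to 128 to 150 CPM and 133 to 147 CPM. Of 10 stem and progenitor markers 3 were measured, Meis1, Cd48 (-0.041) and Kit (0.11), summing to 132 to 161 CPM and 131 to 166 CPM. Of 11 erythroid markers 1 was measured, Car2, at 19.6 ± 3.02 and 19.99 ± 2.68 CPM. No measured marker of these lists had a count of 0 in any library. Control replicate 1 was the highest control for the 4 summed genes and for the neutrophil markers. Of the knockout libraries, replicate 3 had the lowest 4-gene sum and the highest neutrophil sum. The part of such cells in the levels of the platelet genes was not tested.

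**Figure D4:**
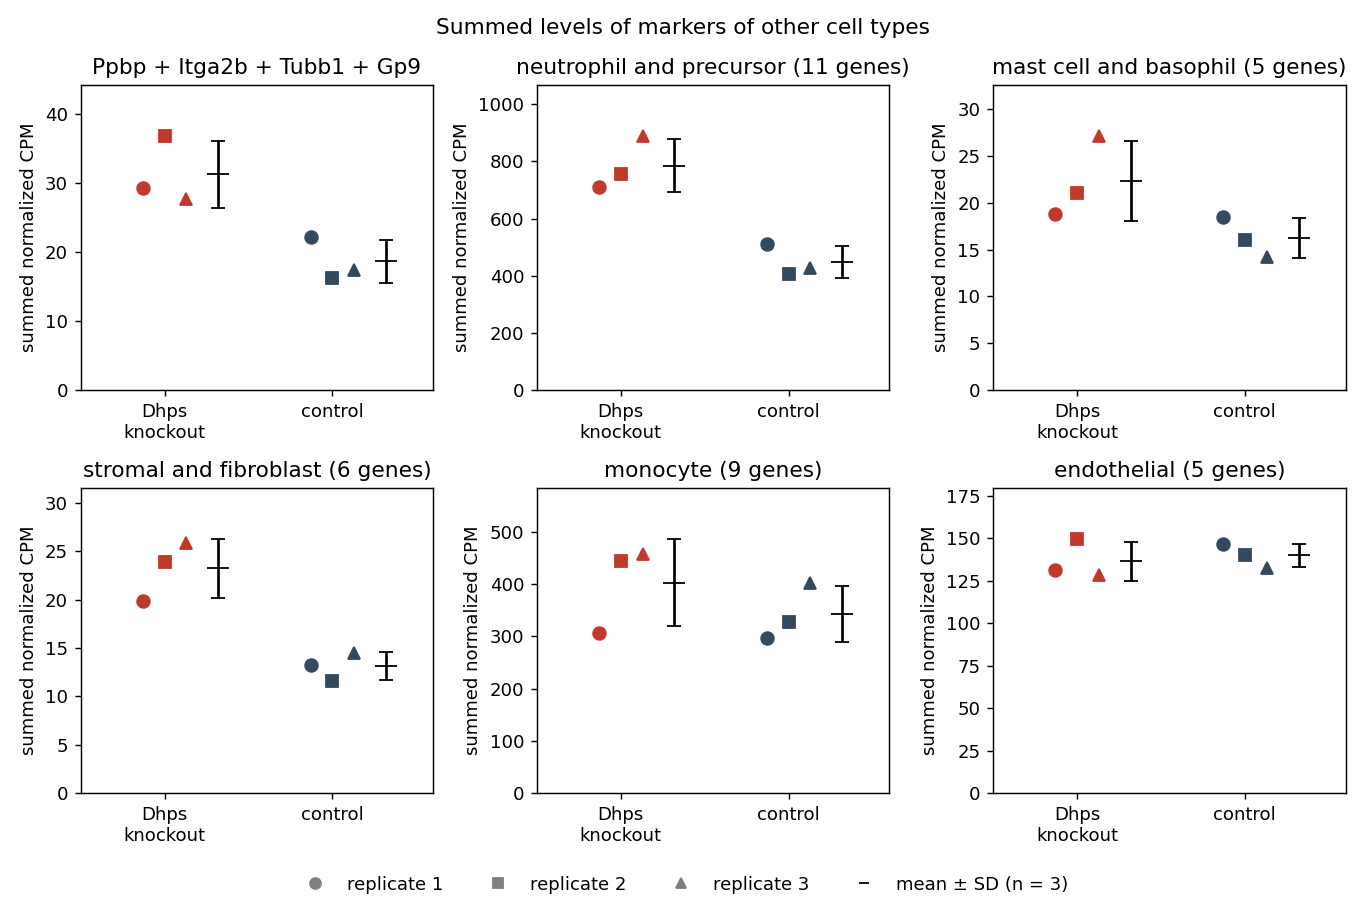
Summed normalized CPM of Ppbp, Itga2b, Tubb1 and Gp9 and of the measured markers of 5 other cell types in each library, Dhps knockout left and control right, with the mean ± SD of 3 libraries and axes from 0. The sums of Ppbp, Itga2b, Tubb1 and Gp9, of neutrophil markers and of stromal markers are higher in all knockout libraries. The mast cell sums are higher only narrowly, and the monocyte and endothelial sums overlap. With Vwf added (not drawn), the platelet gene sums overlap, at 97.1 to 118 CPM in knockout and 94.6 to 106 CPM in control libraries. The platelet, mast cell and stromal sums drawn hold genes that entered the table only through the knockout libraries.

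Genes most like Pf4, Ppbp, Itga2b and Vwf across the 6 libraries were sought among 8641 genes whose average log2 CPM was 2 or more. The measure was the root mean square distance between centred log2 CPM values, and Tubb1 and Gp9 were left out for having under 30 reads in some library. Closest to Pf4 were Dnaja3 at a distance of 0.041, Dcaf6 at 0.056, Hdgfrp2 at 0.058 and Nup54 at 0.059, where the median gene was at 0.21. Closest to Vwf were Luzp1 at 0.025, Snx3 at 0.028, Urb1 at 0.029 and Atp11a at 0.032, where the median was 0.16. Ppbp was closest to Sla at 0.12, Ccl8 at 0.13, Slc2a3 at 0.15 and Trp53bp2 at 0.17, with a median of 0.42. Itga2b was closest to Dlc1 at 0.12, Cndp2, Sema7a and Lif at 0.13 each, with a median of 0.43.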

How the data were processed

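RNA of 6 macrophage libraries was read on an Ion Proton, per the labels' protocols. Deposited values are raw counts for each gene, whole numbers not normalized by the authors, with exon coordinates (mm10) and a summed exon length in bases. The submitters' processing notes list edgeR, featureCounts, STAR 2.4.2a and Subread 1.5.0, with no roles. Which annotation was used, and whether counting used strand, is not given in the sources used here. Lengths, a value of another kind in the deposited table, served for RPKM alone.

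Counts were scaled by TMM (trimmed mean of M values) and tested with edgeR 4.0.16 (quasi-likelihood test, two-sided, genotype as the only term) in R 4.3.3. The filterByExpr filter (minimum count 10) took out 0 genes. Benjamini-Hochberg adjustment ran over 10551 genes. Standard errors came from the fold change and its F statistic. The fit was tested on simulated data. Depth was 11648710 to 16224818 counts per library. Poisson intervals cover counting error only. Log2 CPM values used a prior count of 2. All 6 sample columns were used.

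The 6 genes, the lists and the motifs were chosen with earlier results of these data known. Named are the 6 genes, Dhps, the CXC cluster, the smallest p (up to 4, or 3 for markers of other cells) and highest RPKM (up to 3) of each list, and the closest 4 genes to each member with at least 30 reads. Other list members named, such as Gp5, Gp1ba, F2r, Csf1r, Kdr and Eng, were picked with their values known. A gene that this rule names is not reported here. The alternatives tried were other size factors, filters, DESeq2 1.42.0, limma-voom 3.58.1, a replicate block, an adjusted p of 0.1 and each library left out.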

Additional observations from a re-analysis of the deposited data

How the results depend on the processing

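The log2 fold changes of the 6 genes kept their sign in all 13 alternatives run for each. The excess of the lineage-restricted median over Pf4, 1.05, moved by less than its within-group SD of 0.36, lying between 0.91 and 1.18. The genes were picked from this same comparison, and every alternative kept Tubb1 and Gp9. This steadiness is therefore no support for the difference. The filter took out 0 genes, so the run without it could not differ. The number of genes called over the table was 11, and 22 with DESeq2, 35 with the replicate block, and 4 to 19 with 1 library left out (4 without control replicate 2, 7 without control replicate 3 and 19 without control replicate 1). Of the 6 genes, 0 were called with any library left out. With the replicate block 1 was called, Ppbp (adjusted p = 0.043), while its adjusted p ranged up to 0.641 in the other alternatives and was 0.053 with DESeq2. Of the genes of the 5 platelet lists, 2 were called with the replicate block, Ppbp and Itgb3 (adjusted p = 0.014), and 0 to 1 with 1 library left out, the 1 being Itgb3 without control replicate 1. The cause was not tested. Deviations of libraries with the same number correlated at 0.14, 0.019 and 0.15, and those with unlike numbers at -0.18 to 0.055. The pairs numbered 1 and 3 had the highest values, but knockout replicate 2 correlated better with control replicate 3 (0.055) than with control replicate 2. The numbers are thus not shown to pair the samples. Tubb1 and Gp9, with 3 to 27 reads per library, are limited by depth.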

Other observations

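Receptors and binding partners of Pf4, Ppbp and von Willebrand factor gave 8 measured genes of 12, with 4 above and 4 below 0, a median log2 fold change of 0.0038 and none that passed in edgeR's test (the smallest adjusted p was 0.881). The heparan sulphate proteoglycan gene Sdc4, a candidate surface for the binding of Pf4, was the most abundant at 10484 ± 213 CPM in knockout and 10986 ± 344 CPM in control libraries (SD, n = 3 each, log2 fold change -0.068). Sdc3 was at 431 ± 19.9 and 432 ± 60.3 CPM (-0.0049) and Sdc1 at 376 ± 18.0 and 345 ± 56.2 CPM (0.12). Ccr1, a chemokine receptor, was at 1205 ± 43.3 and 1156 ± 88.8 CPM (0.061). The chemokine receptor genes Cxcr1, Cxcr2 and Cxcr3 and the von Willebrand factor protease gene Adamts13 were not among the genes analysed. These genes were chosen after their values were seen.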
